A study of Mus musculus with 4 samples.

Results

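The guanylin pathway of the gut lining was followed through 7 genes named by symbol: the hormones guanylin (Guca2a) and uroguanylin (Guca2b), their receptor Gucy2c, the cyclic GMP kinases Prkg1 and Prkg2, and the phosphodiesterases Pde5a and Pde9a. Of these, 6 were analysed among the 14519 genes of the deposited table, and Prkg1 was not analysed here. RNA came from mouse colonic epithelium, in 2 libraries of cells sorted for a Reg4-dsRed reporter (deep crypt secretory cells, called Reg4+ DCS) and 2 libraries of cells sorted for an Lgr5-GFP reporter (crypt base stem cells, called Lgr5+). Cells were sorted and libraries made in 2 separate rounds, described by the submitters as a biological replication. No treatment is named in the labels for either group, and the sources used here do not give the strain, age, sex or number of mice. The libraries were made by CEL-seq, which reads the 3′ ends of transcripts.

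Guanylin and uroguanylin are small peptide hormones that epithelial cells secrete into the gut lumen. They bind guanylate cyclase C, the product of Gucy2c, on the apical face of epithelial cells, and the receptor then makes cyclic GMP from GTP. In the intestine cyclic GMP acts largely through the membrane-bound type II kinase encoded by Prkg2, which opens the chloride channel CFTR and restrains sodium uptake, so that salt and water move into the lumen. Phosphodiesterases such as those encoded by Pde5a and Pde9a break cyclic GMP down and end the signal.

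Both hormone genes lie on chromosome 4 (mm10, GENCODE M21), Guca2a at 119637704 to 119639471 on the plus strand and Guca2b at 119656607 to 119658954 on the minus strand. Their 3′ ends face each other across 17135 bases that hold 0 annotated genes. The active hormones are cut from the C-terminal ends of longer precursors, so the last 15 codons before the stop codon are shown for both genes, with the codons for cysteine in capitals, because these cysteines pair to hold each hormone in its active fold.
Guca2a: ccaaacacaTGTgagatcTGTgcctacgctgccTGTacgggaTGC
Guca2b: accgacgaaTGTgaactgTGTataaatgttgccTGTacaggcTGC
Both stretches had 4 cysteine codons, at positions 4, 7, 12 and 15 of the 15. Over the 45 bases the genes were identical at 29 (64.4%). The precursor of Guca2a has 116 codons, and the annotated precursors of Guca2b have 106 and 130. The 3′ ends of Guca2a, Guca2b and Gucy2c overlapped 0 other annotated genes.

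Levels are given as RPM, the reads of a gene per 1000000 reads of a library. The libraries followed their labels: Reg4 stood at 6043 ± 204 RPM in Reg4+ DCS cells, against 580 ± 306 RPM in Lgr5+ cells (SD, n = 2 each, as for every such pair), and Lgr5 at 2.06 ± 1.52 RPM in Reg4+ DCS cells, against 47.6 ± 1.62 RPM in Lgr5+ cells. Read totals inferred from the RPM values were 5523304 and 1890960 in the 2 parts of Reg4+ DCS replicate 1. They were 3004289 and 2443971 in those of replicate 2. Reads recovered gene by gene summed to 5619165 and 1858141 in replicate 1 and 2962789 and 2477731 in replicate 2, so the recovery was not exact. In Lgr5+ replicates 1 and 2 inferred totals and recovered reads were equal, at 5205723 and 7955340. All 7 epithelial markers were present in every library, and 0 of them were called by limma, beside 34.1% of all tested genes. Their log2 fold changes (Reg4+ DCS minus Lgr5+) ran from −0.62 for Epcam (limma adjusted p = 0.0632) to 0.07 for Krt19. The 7 markers summed to 9632 and 10660 RPM in the Reg4+ DCS libraries, against 12905 and 10998 RPM in the Lgr5+ libraries. The 9 tuft cell markers analysed summed to 3.72 and 4.34 RPM in the Reg4+ DCS libraries, against 1042 and 315 RPM in the Lgr5+ libraries, and 6 leukocyte markers to 1.62 and 1.20 RPM in the Reg4+ DCS libraries, against 46.7 and 15.1 RPM in the Lgr5+ libraries. The leukocyte sums in the Lgr5+ libraries were mostly Ptprc, at 40.1 and 9.55 RPM. Both sums were higher in Lgr5+ replicate 1 than in Lgr5+ replicate 2, and the part of these cells in the results was not tested.

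Both hormone genes rose in Reg4+ DCS cells, while the receptor gene Gucy2c and the phosphodiesterase gene Pde5a fell on the deposited scale. Of 5 members tested, 2 were higher in Reg4+ DCS cells, a call that 7.18% of all 10183 tested genes received, and 2 were lower, a call that 26.9% received (34.1% in either direction). The libraries of the groups did not overlap for 4 of the 5, beside 72.3% of all tested genes. The test was limma on log2(RPM + 1), with p adjusted over all tested genes and called under 0.05. Fold changes on the log2 scale are Reg4+ DCS minus Lgr5+. On this scale the median of all tested genes was −0.47 and 21.0% of calls were higher in Reg4+ DCS cells. Median-of-ratios scaling, which sets the typical gene equal between libraries, brought that median to 0.02 and made 55.1% of calls higher. Relative to the median of all tested genes the members stood at 2.25 for Guca2a, 3.23 for Guca2b, −0.61 for Gucy2c, −0.38 for Pde5a and −0.21 for Pde9a. Each library is a mixture of many sorted cells, so more cells with a transcript and more transcript per cell cannot be told apart.

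**Figure D1:**
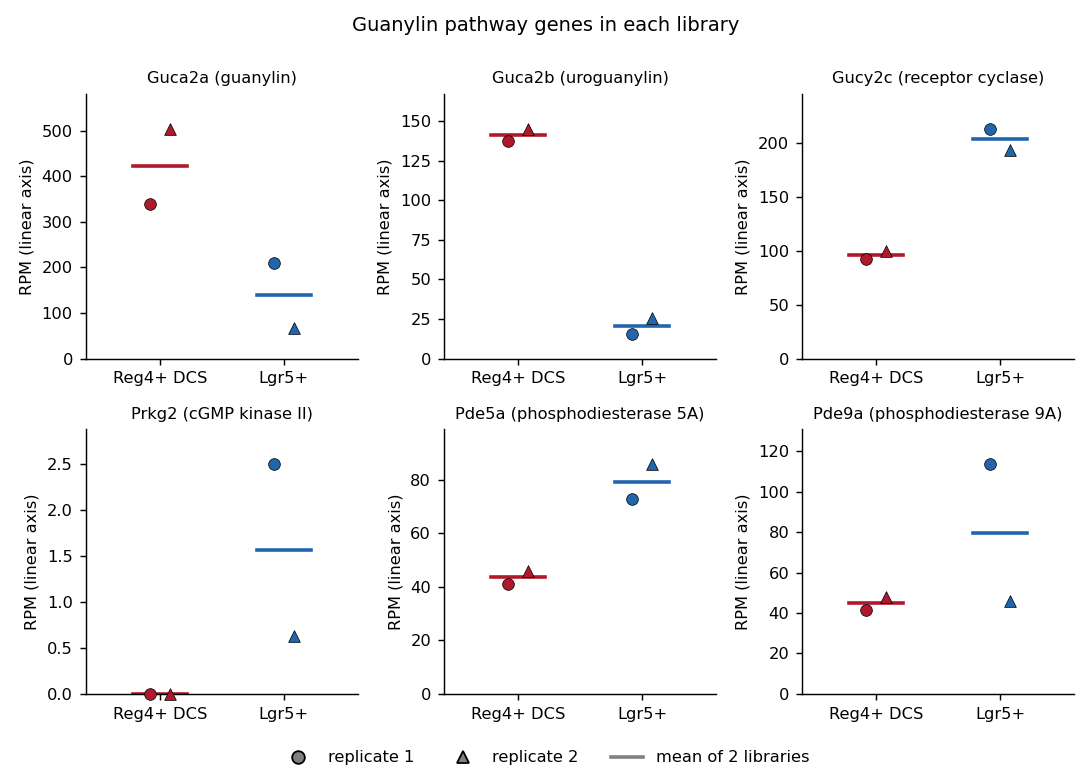
RPM of the 6 members analysed in each library, on linear axes from 0, with Reg4+ DCS left of Lgr5+. Points are libraries and bars are means of 2 libraries; both Reg4+ DCS points lie above both Lgr5+ points for Guca2a and Guca2b and below them for Gucy2c and Pde5a, while the groups overlap for Pde9a.

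Guanylin was the most abundant member in Reg4+ DCS cells. Guca2a had 339 and 505 RPM in the Reg4+ DCS libraries, against 211 and 67.5 RPM in the Lgr5+ libraries. Both Reg4+ DCS libraries were above both Lgr5+ libraries, as they were for 16.1% of all tested genes, and the spread within Lgr5+ cells was wide. Means were 422 ± 118 RPM in Reg4+ DCS cells, against 139 ± 101 RPM in Lgr5+ cells, a 3.03-fold difference. The log2 fold change was 1.78 (SE 0.48, limma adjusted p = 0.0236). By level Guca2a ranked 363 and 252 among all genes of the Reg4+ DCS libraries, and 692 and 2556 in the Lgr5+ libraries.

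The size of the Guca2a difference rested on the Lgr5+ libraries: the fold was 6.25 without Lgr5+ replicate 1 and 2.00 without Lgr5+ replicate 2. With a library left out, its group has 1 library, which is assumed to vary like the other group, and the spread comes from that group alone. The difference missed the threshold when low values were not filtered (adjusted p = 0.0644), without Reg4+ DCS replicate 1 (log2 fold change 2.07, adjusted p = 0.0825) and without Reg4+ DCS replicate 2 (log2 fold change 1.495, adjusted p = 0.131). Lgr5+ replicate 1, the library with more Guca2a, also had more RNA of other cell types. Its 11 absorptive cell markers summed to 996 RPM against 186 RPM in Lgr5+ replicate 2, and all 11 were higher in replicate 1. In the Reg4+ DCS libraries the same markers summed to 156 and 88.4 RPM. Of the 9 tested, 4 were called lower in Reg4+ DCS cells and 1 higher, beside 26.9% and 7.18% of all tested genes. The higher one, Anpep, had 5.79 and 10.1 RPM in the Reg4+ DCS libraries, against 0.576 and 0.251 RPM in the Lgr5+ libraries. Anpep passed the filter only through its Reg4+ DCS values and Cyp2c55 only through its Lgr5+ values, which fixes their direction. The 9 goblet cell markers summed to 210619 and 139466 RPM in the Reg4+ DCS libraries, against 6407 and 2478 RPM in Lgr5+ replicates 1 and 2. Their part in the Guca2a values was not tested.

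Uroguanylin showed the largest fold of the 5 tested members. Guca2b had 138 and 145 RPM in the Reg4+ DCS libraries, against 15.6 and 25.8 RPM in the Lgr5+ libraries. The groups were far apart, and the 2 Reg4+ DCS libraries nearly coincided. Means were 142 ± 5.60 RPM in Reg4+ DCS cells, against 20.7 ± 7.22 RPM in Lgr5+ cells, a 6.85-fold difference (5.49 to 9.09 without any 1 library). The log2 fold change was 2.76 (SE 0.29, limma adjusted p = 0.000514), and 106 of the 10183 tested genes had a higher one. Guca2b was called under all 12 alternatives, at adjusted p no higher than 0.0113, where 4 of the 12 left a group with 1 library. In contrast to Guca2a, it was lower in Lgr5+ replicate 1 than in replicate 2, where the recovered reads numbered 81 and 205. Of hormone-making enteroendocrine cells, the 9 markers analysed summed to 35.7 and 50.7 RPM in the Reg4+ DCS libraries, against 125.6 and 61.5 RPM in the Lgr5+ libraries.

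The bases just before each hormone gene are shown, with matches of short motifs in capitals. They lie before the RefSeq start (GRCm38.p6), up to the first base that GENCODE counts as transcribed. The motifs searched on both strands, in the 250 bases before each RefSeq start, were a core of CDX factors (TTTATG) and a core of GATA factors (AGATAA), and no match overlapped another. The first window is chr4:119637482-119637703, plus strand, and the second chr4:119658955-119659195, minus strand.
Guca2a: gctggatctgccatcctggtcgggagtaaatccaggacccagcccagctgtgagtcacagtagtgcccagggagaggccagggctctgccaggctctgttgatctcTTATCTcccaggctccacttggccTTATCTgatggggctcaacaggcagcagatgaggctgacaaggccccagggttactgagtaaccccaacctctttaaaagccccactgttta
Guca2b: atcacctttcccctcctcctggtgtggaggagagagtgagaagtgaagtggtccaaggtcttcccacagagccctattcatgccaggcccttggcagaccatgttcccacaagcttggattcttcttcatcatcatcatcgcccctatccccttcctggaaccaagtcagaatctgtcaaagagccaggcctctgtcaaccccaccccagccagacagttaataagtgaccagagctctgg
The Guca2a window held the GATA core at 2 places, both on the opposite strand. They start 144 and 120 bases before the RefSeq start, which lies past the end of the window shown. The letters of either motif were not in the Guca2b window. Among 32851 promoters of the same length, 9.99% held the GATA core and 10.8% the CDX core. Binding of such factors, and any part of them in the hormone levels, was not tested. Gata6, the gene of one such GATA factor, was lower in Reg4+ DCS cells, at 33.7 ± 5.11 RPM against 65.2 ± 4.22 RPM in Lgr5+ cells (limma adjusted p = 0.0221), but missed the threshold with median-of-ratios scaling (0.156), by edgeR (0.130), without Reg4+ DCS replicate 1 (0.108) and without Lgr5+ replicate 1 (0.0777).

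The receptor gene went the other way from its ligands. Gucy2c (chromosome 6, 136697284 to 136781765, minus strand) had 92.3 and 99.7 RPM in the Reg4+ DCS libraries, against 214 and 194 RPM in the Lgr5+ libraries. The groups did not overlap, and neither did those of 56.2% of all tested genes in this direction. The mean fell to 96.0 ± 5.26 RPM in Reg4+ DCS cells, against 204 ± 13.8 RPM in Lgr5+ cells, 2.12-fold lower (2.02 to 2.23 without any 1 library). The log2 fold change was −1.08 (SE 0.22, limma adjusted p = 0.00786). Median-of-ratios scaling made it −0.57 (adjusted p = 0.0705), and it was −0.73 by edgeR on recovered reads (adjusted p = 0.0343), so the call depended on how libraries are scaled to each other. It was also lost without Reg4+ DCS replicate 1 (adjusted p = 0.0564).

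Ratios within a library do not move with such scaling, and 7 of them were computed after the members' values had been seen. CEL-seq counts 3′ ends, so an RPM value does not grow with transcript length. Hormone over receptor was taken as the summed RPM of Guca2a and Guca2b over that of Gucy2c, a ratio of reads. It came to 5.16 and 6.53 in the Reg4+ DCS libraries, against 1.06 and 0.481 in the Lgr5+ libraries. The groups were apart, by 3.02 on the log2 scale or 8.13-fold (2.45 to 3.59 on the log2 scale without any 1 library). Guca2b over Gucy2c was 1.49 and 1.46 in the Reg4+ DCS libraries, against 0.0728 and 0.133 in the Lgr5+ libraries, a log2 difference of 3.91. With 2 libraries against 2, the exact two-sided permutation test gave p = 0.333 for both ratios, the smallest p it can give, so no such ratio could pass 0.05. Guanylin and uroguanylin were not in a fixed proportion in Lgr5+ cells: Guca2a over Guca2b was 2.46 and 3.47 in the Reg4+ DCS libraries, against 13.6 and 2.62 in the Lgr5+ libraries, which overlap.

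**Figure D2:**
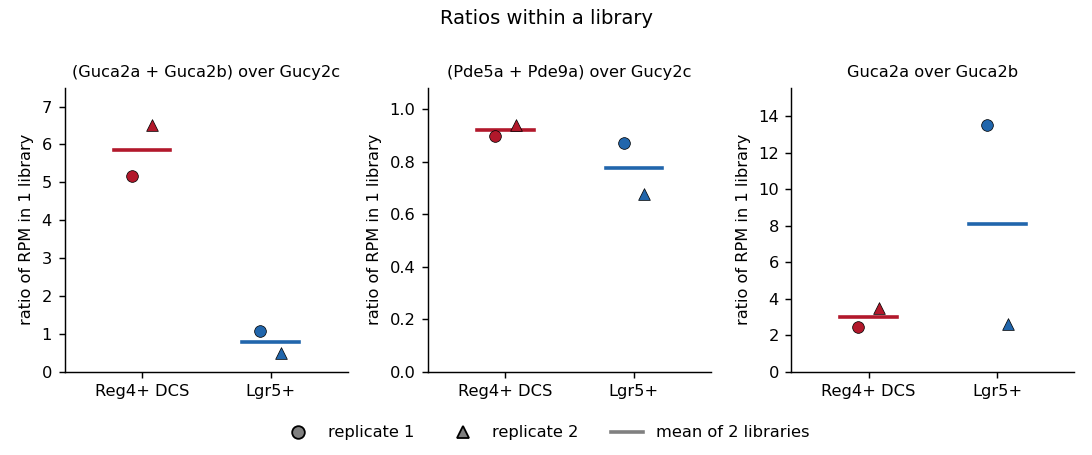
Ratios of RPM within each library, on linear axes from 0, with Reg4+ DCS left of Lgr5+; points are libraries and bars are means of 2 libraries. Hormone over receptor is 5.16 and 6.53 in Reg4+ DCS and 1.06 and 0.481 in Lgr5+ libraries. Pde5a and Pde9a together over Gucy2c lie between 0.679 and 0.942 in all 4 libraries. Pde2a is not part of that ratio. Over Gucy2c, Pde2a is 2.06 and 2.53 in Reg4+ DCS and 0.358 and 0.203 in Lgr5+ libraries (not drawn).

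Of the kinases that carry the signal onward, Prkg2 (chromosome 5, 98929773 to 99037351, minus strand) was near the floor of the measurement. Both Reg4+ DCS libraries listed it at 0, against 2.50 and 0.629 RPM in the Lgr5+ libraries. Those Lgr5+ values came from 13 and 5 recovered reads, and Prkg2 was below the filter of 5 RPM in 2 libraries, so it was not tested. A value of 0 in the Reg4+ DCS columns has to be read with care, because 1645 genes were listed at 0 in each of them and 1641 of these were the same genes. Of the 1641, 1638 were above 0 in both Lgr5+ libraries. Pde3a, Abcc5, Adcy5, Ptprc and some other tuft and leukocyte markers are among them, so their zeros need the same care. No fold is given for Prkg2.

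The phosphodiesterase genes stood close to each other in Reg4+ DCS cells. Pde5a, which encodes a phosphodiesterase specific for cyclic GMP (chromosome 3, 122728947 to 122859374, plus strand), had 41.2 and 46.0 RPM in the Reg4+ DCS libraries, against 72.8 and 86.0 RPM in the Lgr5+ libraries. The groups were apart, with means of 43.6 ± 3.42 RPM in Reg4+ DCS cells, against 79.4 ± 9.32 RPM in Lgr5+ cells. The log2 fold change was −0.85 (SE 0.24, limma adjusted p = 0.0275), or 1.82-fold lower. Pde5a and Pde9a each overlap 2 annotated genes on the opposite strand, none at their 3′ ends, and the sources used here do not say whether strand was used in counting. The Pde5a difference missed the threshold with median-of-ratios scaling (−0.35, adjusted p = 0.283), by edgeR (−0.42, adjusted p = 0.201), and without Reg4+ DCS replicate 1 (adjusted p = 0.119), Reg4+ DCS replicate 2 (0.0585) or Lgr5+ replicate 2 (0.134). Pde5a is known for its part in smooth muscle. Of 12 muscle and stromal markers 5 were analysed, without Myh11 and Cnn1. They reached at most 3.02 RPM in any library, a value of Vim. The part of muscle cells in the Pde5a values was not tested.

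Pde9a, which encodes a phosphodiesterase of high affinity for cyclic GMP (chromosome 17, 31386210 to 31476310, plus strand), did not pass the test. It had 41.7 and 47.9 RPM in the Reg4+ DCS libraries, against 114 and 45.8 RPM in the Lgr5+ libraries. The groups overlapped, since Lgr5+ replicate 2 lay between the Reg4+ DCS libraries and only Lgr5+ replicate 1 was high. The log2 fold change of −0.68 (SE 0.40, limma adjusted p = 0.209) became −0.03 without Lgr5+ replicate 1 (adjusted p = 0.960) and −1.33 without Lgr5+ replicate 2 (adjusted p = 0.00465), both with the spread of the Reg4+ DCS libraries alone. The summed absorptive markers given beside Guca2a were high in the same library, and their part in this value was not tested. Pde5a and Pde9a together over Gucy2c came to 0.899 and 0.942 in the Reg4+ DCS libraries, against 0.873 and 0.679 in the Lgr5+ libraries, a difference of 0.26 on the log2 scale (0.08 to 0.44 without any 1 library). The groups did not overlap but lay 1.20-fold apart, at an exact permutation p of 0.333, again the smallest possible.

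**Figure D3:**
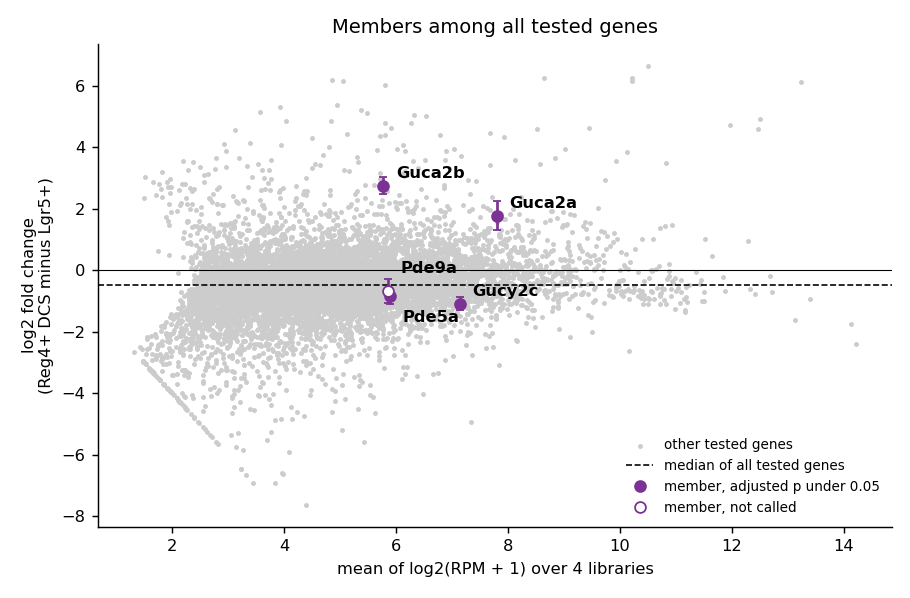
Log2 fold change (Reg4+ DCS minus Lgr5+) against mean log2(RPM + 1) over the 4 libraries for all 10183 tested genes, with members in purple and bars of 1 SE. Guca2a (1.78) and Guca2b (2.76) lie above most genes, and Gucy2c, Pde5a and Pde9a lie below the dashed median of −0.47 but within the cloud of other genes.

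Other genes of the pathway were taken from 4 lists of 63 symbols in all, of which 35 were analysed and 22 tested. Among these 22, 2 were higher in Reg4+ DCS cells, 9 were lower and 11 did not pass, where 7.18% of all tested genes were called higher and 26.9% lower. They had a median log2 fold change of −0.53 beside −0.47 over all tested genes. Under median-of-ratios scaling 4 were higher and 7 lower, where 15.6% of all tested genes were called higher and 12.7% lower. On the deposited scale the lower genes numbered 4 without Lgr5+ replicate 1 and 5 without Lgr5+ replicate 2. Of the 9 lower genes, 4 were under 5 RPM in both Reg4+ DCS libraries and so entered the test through their Lgr5+ values, which fixes their direction. Of 7 analysed genes for other sources of cyclic GMP, 2 were tested and neither passed. Npr1, a natriuretic peptide receptor that makes cyclic GMP, had 4.75 and 5.72 RPM in the Reg4+ DCS libraries, against 3.65 and 5.41 RPM in the Lgr5+ libraries (limma adjusted p = 0.693), and Nosip, whose product binds nitric oxide synthase, had an adjusted p of 0.168. Gucy1a2, a subunit of the nitric oxide-sensitive cyclase, reached at most 1.73 RPM, and Nos2, the inducible nitric oxide synthase, had 0.362 and 0.333 RPM in the Reg4+ DCS libraries, against 5.38 and 3.90 RPM in the Lgr5+ libraries.

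Among 10 other phosphodiesterase genes tested, 1 was higher in Reg4+ DCS cells, 5 were lower and 4 did not pass, beside 7.18% and 26.9% of all tested genes called higher and lower. With median-of-ratios scaling 3 were higher, with Pde4b and Pde4d added, and 3 were lower. The one higher on the deposited scale was Pde2a, whose enzyme is stimulated by cyclic GMP and degrades both cyclic GMP and cyclic AMP. Pde2a had 190 and 253 RPM in the Reg4+ DCS libraries, against 76.5 and 39.5 RPM in the Lgr5+ libraries. It stood above Pde5a and Pde9a in both Reg4+ DCS libraries and was 3.82-fold higher than in Lgr5+ cells (log2 fold change 1.98, SE 0.33, limma adjusted p = 0.00372). The RPM of Pde2a over that of Gucy2c came to 2.06 and 2.53 in the Reg4+ DCS libraries, against 0.358 and 0.203 in the Lgr5+ libraries. The lower ones included Pde3b, of the family that cyclic GMP inhibits, at 1.76 ± 0.192 RPM in Reg4+ DCS cells against 14.5 ± 0.102 RPM in Lgr5+ cells. For Pde3a, its close relative, both Reg4+ DCS libraries listed 0, against 9.03 and 9.05 RPM in the Lgr5+ libraries. Pde1b, Pde3a and Pde3b were under 5 RPM in both Reg4+ DCS libraries. These genes entered the test through their Lgr5+ values, which fixes their direction. Pde8b, specific for cyclic AMP, had 1.97 and 5.80 RPM in the Reg4+ DCS libraries, against 32.1 and 27.0 RPM in the Lgr5+ libraries, with a log2 fold change of −2.76 (limma adjusted p = 0.00247), and −3.36 without Reg4+ DCS replicate 2 (0.00686). The remaining 2, Pde1b and Pde7a, missed the threshold by edgeR (adjusted p = 0.0785 and 0.178), with median-of-ratios scaling (0.0763 and 0.224), with no filter (0.0524 and 0.0704) and without Reg4+ DCS replicate 1 (0.155 and 0.197). Pde7a also missed it without Lgr5+ replicate 1 (log2 fold change −1.09) or 2 (−0.82). Pde1b fell under the filter in both of these settings and was not tested in them.

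Of the proteins on which intestinal cyclic GMP acts, the channel gene Cftr differed most. Cftr, the chloride channel opened by the type II kinase, had 2.24 and 7.98 RPM in the Reg4+ DCS libraries, against 85.9 and 91.3 RPM in the Lgr5+ libraries. It was 17.3-fold lower in Reg4+ DCS cells (11.1 without Reg4+ DCS replicate 1 and 39.5 without replicate 2), with a log2 fold change of −4.05 (SE 0.45, limma adjusted p = 0.000684). Slc9a3r2, a scaffold that holds the type II kinase near its targets, rose to 27.0 ± 1.80 RPM in Reg4+ DCS cells, against 7.42 ± 0.171 RPM in Lgr5+ cells (3.64-fold, limma adjusted p = 0.00341). The related scaffold Slc9a3r1 had 106 and 139 RPM in the Reg4+ DCS libraries, against 231 and 155 RPM in the Lgr5+ libraries and did not pass (adjusted p = 0.101). Slc26a3, the chloride-bicarbonate exchanger of absorptive cells, was 6.76-fold lower (2.93 without Lgr5+ replicate 1 and 10.6 without Lgr5+ replicate 2, adjusted p = 0.0134), but missed the threshold without Reg4+ DCS replicate 2 (0.0871). Slc4a4, a sodium bicarbonate cotransporter, was 4.88-fold lower (limma adjusted p = 0.00447). Slc12a2, which loads epithelial cells with chloride, had 218 and 369 RPM in the Reg4+ DCS libraries, against 352 and 405 RPM in the Lgr5+ libraries (adjusted p = 0.285). Abcc5, an exporter of cyclic nucleotides, was called lower, with both Reg4+ DCS libraries listing 0, against 12.9 and 5.03 RPM in the Lgr5+ libraries. Abcc5 entered the test through its Lgr5+ values, which fixes the direction of this call. Abcc4, another such exporter, did not pass, with 14.1 and 22.1 RPM in the Reg4+ DCS libraries, against 26.5 and 38.0 RPM in the Lgr5+ libraries (adjusted p = 0.0852).

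The cyclic AMP branch is given for comparison, since its kinase opens the same chloride channel. Of 8 tested genes 0 were higher in Reg4+ DCS cells, 2 were lower and 6 did not pass by limma, where 26.9% of all tested genes were called lower, and 1, Prkar2a, was higher under median-of-ratios scaling. The catalytic subunit Prkaca had 119 and 112 RPM in the Reg4+ DCS libraries, against 166 and 153 RPM in the Lgr5+ libraries (adjusted p = 0.126), far above the values of Prkg2. The lower genes were Prkar2b, a regulatory subunit, at 3.29 ± 0.836 RPM in Reg4+ DCS cells against 10.6 ± 1.47 RPM in Lgr5+ cells, and Adcy5, an adenylate cyclase, for which both Reg4+ DCS libraries listed 0, against 53.4 and 20.6 RPM in the Lgr5+ libraries. Both were under 5 RPM in each Reg4+ DCS library and entered the test through their Lgr5+ values, which fixes the direction of these calls. Of 6 tested transcription factors of gut identity, 0 were higher and 4 lower, beside the 26.9% of all tested genes called lower, and 2 were lower with median-of-ratios scaling. Cdx2, lower on both scales, stood at 45.8 ± 6.59 RPM in Reg4+ DCS cells against 162 ± 66.1 RPM in Lgr5+ cells (limma adjusted p = 0.00490).

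**Figure D4:**
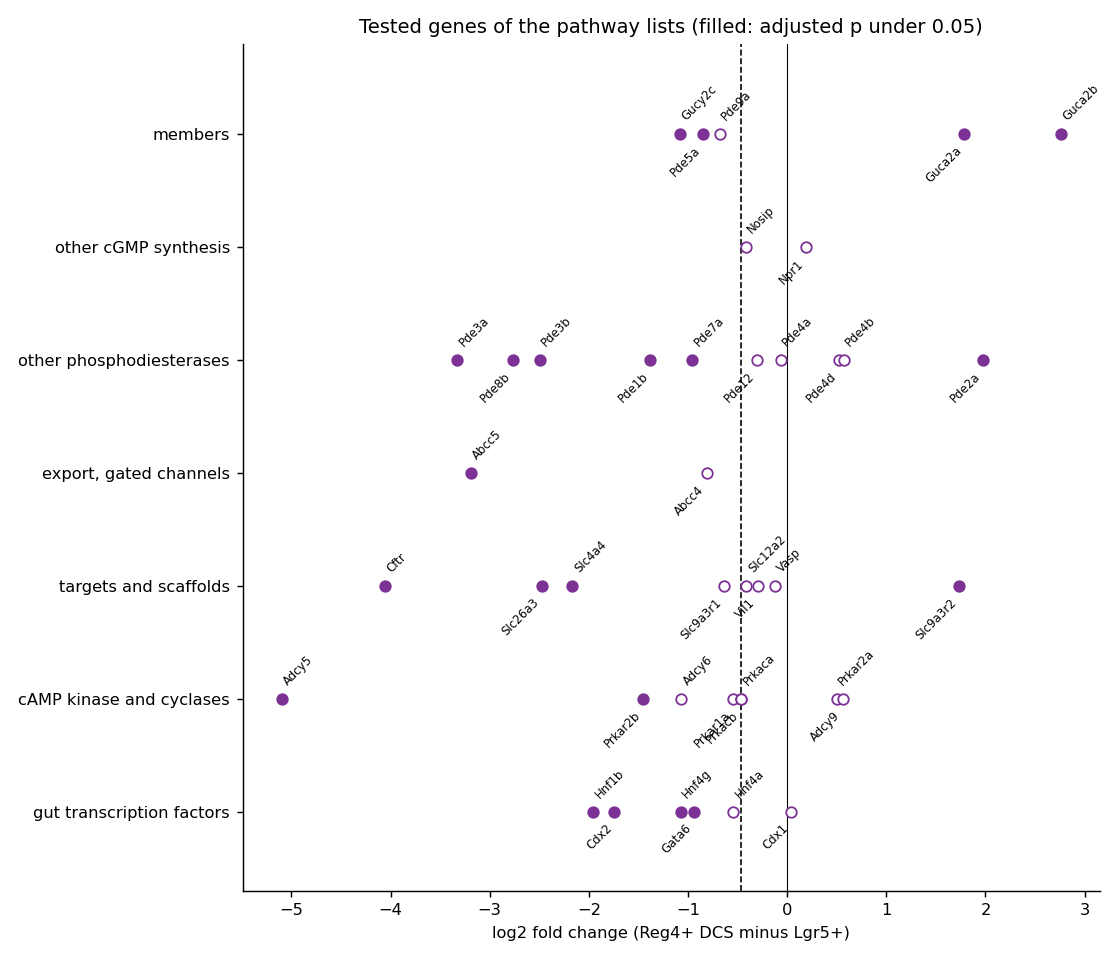
Log2 fold change (Reg4+ DCS minus Lgr5+) of each tested gene in the members and 6 further lists; filled points have an adjusted p under 0.05 and the dashed line is the median of all tested genes, −0.47. Pde2a and Slc9a3r2 are the filled points above 0 outside the members, and Pde3a, Abcc5 and Adcy5, listed at 0 in both Reg4+ DCS libraries, have places that depend on the pseudocount.

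For each tested member the 3 genes nearest to it over the 4 libraries were found by the Euclidean distance of log2(RPM + 1), as a description of level and pattern together. Those nearest to Guca2b were Cd97, an adhesion receptor (distance 0.66), Ffar4, a receptor for long-chain fatty acids (0.75), and C1galt1c1, a chaperone of mucin-type glycosylation (0.87). Those nearest to Guca2a were Selm, a selenoprotein of the endoplasmic reticulum (0.78), the hexokinase gene Hk2 (0.88) and the chaperone gene Dnajb1 (0.96). Gucy2c had closer neighbours, Gps2 (0.23), Tmem160 (0.31) and Ndufb7 (0.32). Pde5a lay beside Mrps15 (0.15), Dap3 (0.16) and Cdkn1b (0.17), and Pde9a beside Asah1 (0.21), Chd2 (0.23) and Kdm5a (0.30). The distances to the nearest genes were larger for the hormone genes than for the receptor and the phosphodiesterases. Only 258 and 106 tested genes had a higher log2 fold change than Guca2a and Guca2b. Whether this bears on the distances was not tested, and the distances are no separate result.

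**Figure D5:**
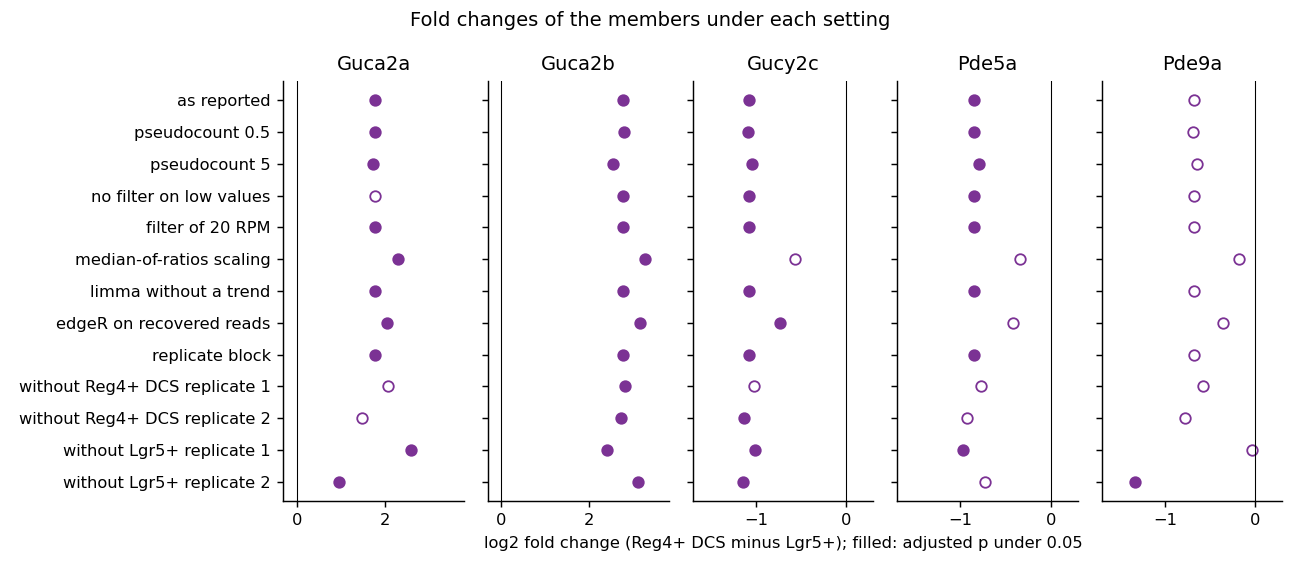
Log2 fold change (Reg4+ DCS minus Lgr5+) of the 5 tested members as reported and under 12 alternative settings, with filled points at an adjusted p under 0.05. Guca2b is filled in every row, Gucy2c and Pde5a move toward 0 under median-of-ratios scaling, and Pde9a runs from −1.33 to −0.03 as either Lgr5+ library is left out.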

How the data were processed

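The authors deposited 1 table of RPM, and each of its 4 columns sums to 1000000. CEL-seq libraries were sequenced as paired-end reads, per the labels' protocols, and BWA 0.6.2-r126 and mm10 are named per the submitters' processing notes. The sources used here do not name the gene counter or its annotation, nor whether molecular identifiers were used. In the Lgr5+ columns 100% of RPM values were whole reads within 0.01. The Reg4+ DCS values were sums of 2 step sizes, as a mean of 2 separately scaled parts gives, and were decoded uniquely for 99.9% and 98.6% of genes. The sources used here do not say what the parts were, so a column entered as a single replicate.

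Genes with at least 5 RPM in at least 2 libraries were tested with limma 3.58.1 in R 4.3.3 (eBayes with a trend, two-sided, group as the only term, Benjamini-Hochberg over all tested genes) on log2(RPM + 1), a scale that understates the change of low genes. The p-values rest on the spread between 2 libraries per group or, with a library left out, on that of the other group alone. Alternatives were pseudocounts of 0.5 and 5, other filters, median-of-ratios scaling, no trend, edgeR 4.0.16 on the recovered reads, the replicate number as a block, and each library left out. With a library left out, the filter was applied again, so the set of tested genes changed. The fit was tested on simulated data. Named genes were the members, called genes of the lists and the 3 nearest genes of each tested member, while other genes were named after their values were seen. One gene of the lists and a motif are not reported here. The members and lists were chosen with earlier results of these data known. Motif shares come from RefSeq promoters, coding sequences from GENCODE M21 (GRCm38, the assembly of mm10).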

Additional observations from a re-analysis of the deposited data

How the results depend on the processing

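Of all tested genes, 731 passed as higher in Reg4+ DCS cells, and 2744 as lower. These counts were 1591 and 1297 under median-of-ratios scaling and 1393 and 1362 by edgeR. Leaving out 1 library gave 349 (Reg4+ DCS replicate 2) to 706 higher and 1060 (Reg4+ DCS replicate 1) to 2288 lower genes. Higher members numbered 1 in place of 2 with no filter on low values and 1 to 2 with 1 library left out. Lower members numbered 0 under median-of-ratios scaling and 1 by edgeR, where limma called 2, and 0 to 2 with 1 library left out. In the 4 pathway lists, higher genes numbered 4 under median-of-ratios scaling (2 as reported), lower genes 5 with a filter of 20 RPM, and lower genes 4 to 8 with 1 library left out (9 as reported). Guca2a missed the threshold with no filter (1.78), Gucy2c under median-of-ratios scaling (−0.57), and Pde5a under median-of-ratios scaling (−0.35) and by edgeR (−0.42). With 1 library left out the log2 fold changes ran from 0.97 to 2.60 for Guca2a, 2.41 to 3.10 for Guca2b, −1.15 to −1.01 for Gucy2c, −0.97 to −0.73 for Pde5a and −1.33 to −0.032 for Pde9a. The within-library log2 difference of Guca2a over Guca2b ran from −2.21 to 0.16, and its sign turned without Lgr5+ replicate 1 (0.16). Of 422 alternative values for 39 called list genes, 31 lost the call and 0 turned direction. The causes were not tested. With the replicate block, 910 genes were higher and 3534 lower, and no member's call changed. Replicate 1 deviations of the 2 groups correlated across genes at 0.21, but the labels do not say that a number marks a shared round. Prkg2 had too low a level to be tested.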

Other observations

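Each Reg4+ DCS column was split into its 2 parts. Guca2a had 348 and 329 RPM in the parts of replicate 1 and 493 and 518 RPM in those of replicate 2. Guca2b had 124 and 151 RPM in the parts of replicate 1 and 139 and 152 RPM in those of replicate 2. Gucy2c had 73.5 and 111 RPM in replicate 1 and 88.5 and 111 RPM in replicate 2, so the parts differed more for the receptor than for Guca2a in both columns. Pde5a lay between 40.2 and 48.3 RPM and Pde9a between 39.7 and 51.3 RPM in all 4 parts, and Prkg2 was listed at 0 in each. The parts have no labels and are not replicates.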
